A study of Mus musculus with 6 samples.

Results

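The molecules described here are cell surface proteins that hold neurites, glia and both sides of a synapse together. They were the genes of the contactin, contactin-associated protein, L1, NCAM, SynCAM, IgLON, neurexin, neuroligin, LRRTM, FLRT and SLITRK families, chosen by gene symbol. The families were chosen with earlier results of these data known. Of the 18193 genes named by the array, 41 belonged to these families, with 99 probe sets. Of these, 39 genes with 80 probe sets passed the filter on low signals, while Cntnap1 and Slitrk3 had no probe set that passed.

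RNA was taken from micro-dissected cochlear sensory epithelia (CSE) of Swiss mice (Swiss Webster in the methods of the study) without any treatment, at postnatal day 3 (P3) and in the adult at 8 weeks, and was hybridized to Affymetrix Mouse Genome 430 2.0 arrays. Each stage had 3 arrays, and each array held a pool of 40 CSE from 20 mice. The CSE consists of hair cells and supporting cells, at P3 also of the greater and lesser epithelial ridges, and in the adult also of inner sulcus and interdental cells. Most of the spiral ganglion was dissected away, but nerve endings and remaining neurons and glia stay with such a tissue. In a bulk sample, fewer cells of a type and less RNA per cell cannot be told apart.

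Adhesion molecules of neurons act across the gap between cells. Neurexins on the presynaptic membrane bind neuroligins and LRRTMs on the postsynaptic one, SLITRKs bind presynaptic receptor phosphatases, and FLRTs bind latrophilins and Unc5 receptors. Contactins are immunoglobulin proteins with a lipid anchor that pair with contactin-associated proteins, and with neurofascin they fasten myelin to the axon beside the node of Ranvier. In the cochlea, the afferent synapses of hair cells are formed and pruned around birth and the first weeks after it, and mice and people without SLITRK6 have impaired hearing.

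Between P3 and adult CSE, 5 of the 39 genes were higher at P3 and 1 was so in the adult. The 5 genes were Lrrtm1, Lrrtm4, Slitrk6, Flrt3 and Cntn3, and the adult one was Cntnap5a. A gene was called at an adjusted p under 0.05 (limma, Benjamini-Hochberg over 29036 probe sets) and a fold of at least 2, at its brightest probe set, the one of highest mean signal. Of all 13743 genes tested in this way, 5.54% were called at P3 and 4.58% in the adult. Of the 80 probe sets, 9 were called higher at P3 and 2 were called for the adult, against 3.87% and 3.39% of all probe sets. All 4 leucine-rich repeat genes called were higher at P3, 4 of 12 measured, whereas 1 of 19 measured genes of the immunoglobulin families was, namely Cntn3. By other measures these groups were more alike. An unadjusted p under 0.05 by limma with higher signal at P3 was found in 6 of the 12 and 8 of the 19. Over all 13743 genes, such a p was found in 2171 with higher signal at P3 and in 1806 with higher signal in the adult. The counts of this kind given below for families and lists, with all arrays, are to be read against these shares. Regardless of p, 9 of the 12 and 14 of the 19 were lower in the adult. Over all 39 genes the difference was below 0 (lower in the adult) in 28 and above 0 in 11, with a median log2 fold change (adult minus P3, hereafter log2 change) of -0.48 against -0.04 over all genes. In 14 genes every P3 array lay above every adult array and in 2 genes the reverse held, which is 35.9% and 5.13% of the members against 20.4% and 16% of all genes.

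A pair of arrays stood apart from the others of their stage. P3 replicate 1 had a Gapdh 3' to 5' control ratio of 82.0, against 0.707 to 2.07 elsewhere, and 47.4% of its probe sets were above background, against 58.6% to 68.1%. Adult replicate 1 held more signal of neuronal genes than the other adult arrays: the summed signal of 22 pan-neuronal markers was 39600 on it, 12593 and 19174 on adult replicates 2 and 3, and 8689 to 10399 at P3. Without adult replicate 1, 11 member genes were called higher at P3 and 0 in the adult by limma (2 at an unadjusted p under 0.05), where 4.38% and 3.51% of all genes were called. Without P3 replicate 1 and adult replicate 1, 14 members were called higher at P3 and 2 in the adult. This choice was made after seeing the data, and 8.02% and 7.41% of all genes were then called. The count at P3 was 2 without adult replicate 3 and 3 without P3 replicate 2, where the calls at P3 over all probe sets were 342 and 451, against 1125 with all arrays.

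**Figure D1:**
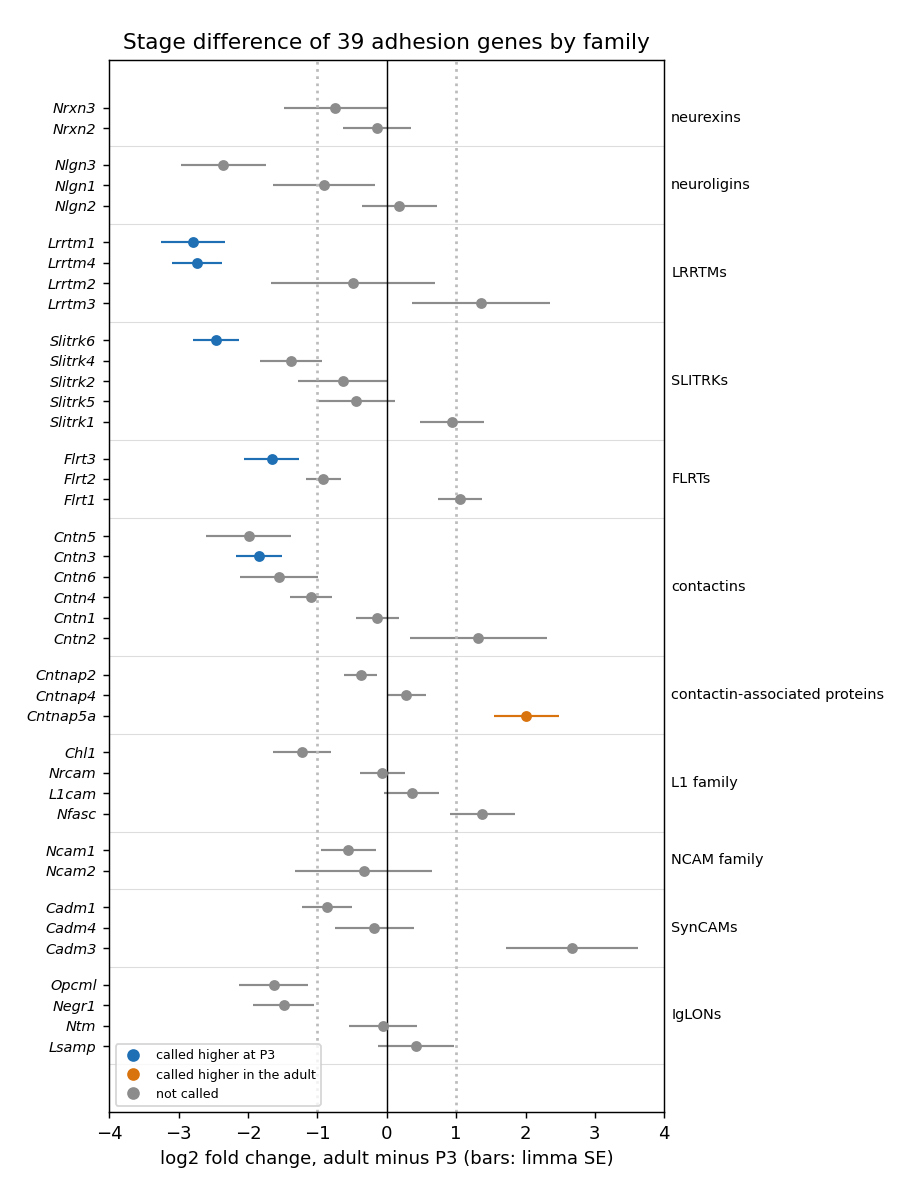
Log2 fold change, adult minus P3, of the 39 measured adhesion genes at their brightest probe sets, grouped by family, with bars of 1 limma SE, colours for the calls and dotted lines at a fold of 2. The 5 genes called at P3 lie between -2.80 and -1.66, and Cntnap5a lies at 2.01.

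The 5 genes called at P3 were grouped by that call alone, and a common regulation of them was not tested. The sequences upstream of these genes are shown. Each is the 250 bases before the start of the first RefSeq transcript window (GRCm38.p6), written 5' to 3' on the gene's own strand, with E-boxes (CANNTG, a palindrome, so that both strands are covered) in capitals. bHLH proteins, among them Atoh1 of hair cells and Neurod1 of spiral ganglion neurons, bind motifs of this kind.
Lrrtm1, chr6:77242227-77242476, plus strand: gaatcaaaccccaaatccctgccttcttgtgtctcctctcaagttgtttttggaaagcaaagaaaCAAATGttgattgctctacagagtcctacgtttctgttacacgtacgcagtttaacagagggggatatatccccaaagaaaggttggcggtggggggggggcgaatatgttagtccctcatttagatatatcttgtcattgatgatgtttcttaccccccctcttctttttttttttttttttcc
Lrrtm4, chr6:80018627-80018876, plus strand: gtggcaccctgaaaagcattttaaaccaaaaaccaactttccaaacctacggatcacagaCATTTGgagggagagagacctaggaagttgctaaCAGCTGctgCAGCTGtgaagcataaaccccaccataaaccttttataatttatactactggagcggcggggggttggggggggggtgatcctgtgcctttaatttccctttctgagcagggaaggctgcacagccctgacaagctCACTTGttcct
Slitrk6, chr14:110755150-110755399, minus strand: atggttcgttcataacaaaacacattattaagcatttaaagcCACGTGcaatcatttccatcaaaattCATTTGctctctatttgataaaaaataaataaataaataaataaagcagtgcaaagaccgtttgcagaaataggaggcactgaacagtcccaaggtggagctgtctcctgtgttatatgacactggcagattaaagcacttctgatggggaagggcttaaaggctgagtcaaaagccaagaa
Flrt3, chr2:140671477-140671726, minus strand: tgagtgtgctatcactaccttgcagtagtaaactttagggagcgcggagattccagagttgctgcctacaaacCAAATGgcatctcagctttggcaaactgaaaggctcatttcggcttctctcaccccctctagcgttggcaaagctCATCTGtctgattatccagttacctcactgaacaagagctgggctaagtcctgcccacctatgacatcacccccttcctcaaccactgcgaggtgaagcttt
Cntn3, chr6:102464668-102464917, minus strand: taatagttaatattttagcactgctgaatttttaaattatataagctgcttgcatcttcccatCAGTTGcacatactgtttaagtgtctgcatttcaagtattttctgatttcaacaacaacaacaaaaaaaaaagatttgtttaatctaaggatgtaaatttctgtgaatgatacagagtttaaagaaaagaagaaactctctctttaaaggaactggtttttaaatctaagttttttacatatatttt
The Lrrtm4 window shown held 4 E-boxes, those of Slitrk6 and Flrt3 held 2 each, and those of Lrrtm1 and Cntn3 held 1 each. An E-box was present in 66.2% of all 32851 windows of this length and in 28 of the 44 windows of the 30 members with an entry. The Lrrtm4 window shown also held 2 TATA boxes (TATAAA or TTTATA), a motif found in 12.4% of all windows, while a further RefSeq window of Lrrtm4 held 2 E-boxes and 0 TATA boxes. None of the 5 windows held a CCAAT box (CCAAT on either strand) or a GC box (GGGCGG on either strand), present in 33.8% and 32.7% of all windows. A match of letters describes the sequence and shows no binding.

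LRRTMs are postsynaptic leucine-rich repeat proteins of excitatory synapses, and 2 of the 4 measured, Lrrtm1 and Lrrtm4, were lower in the adult. Lrrtm4, which also binds heparan sulfate proteoglycans of the presynaptic side, gave signals of 475, 545 and 410.2 on P3 replicates 1, 2 and 3 and of 105, 40.3 and 84.9 on adult replicates 1, 2 and 3. Every P3 array was well above every adult array. The fold was 6.67, with a log2 change of -2.74 (SE 0.36, limma adjusted p = 0.00443), and Lrrtm4 was called in all 18 alternative settings, between -3.39 and -2.33. A further probe set of Lrrtm4 gave 54.4, 35.6 and 29.5 at P3 and 1.63, 3.18 and 2.43 in the adult. In the adult it was above background on no array, so that it was at least 3.55-fold higher at P3 (limma adjusted p = 0.0125 on the signals as deposited, 0.0550 with signals floored at background, and over 0.05 when adult replicate 3 or either of P3 replicates 2 and 3 was omitted).

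Lrrtm1, a neurexin ligand, gave 434, 313 and 269 on the P3 arrays and 104, 30.4 and 34.6 on the adult arrays. Adult replicate 1 was the highest adult array, and it still lay below all P3 arrays. The fold was 6.94, with a log2 change of -2.80 (SE 0.46, limma adjusted p = 0.0105), and the call was lost only without adult replicate 3 (-2.56, adjusted p = 0.0588). The other measured probe sets of Lrrtm1 gave log2 changes of -2.07 (adjusted p = 0.0831) and -1.30 (0.293), without a call.

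The rest of the LRRTM family was near the background. Lrrtm2 was above background on 2 arrays of each stage and gave 35.3, 4.44 and 6.39 at P3 and 21.9, 1.79 and 9.34 in the adult. Lrrtm3 gave 2.54, 10.2 and 27.9 at P3 and 60.0, 12.9 and 15.6 in the adult. In both genes the stages overlapped, and neither log2 change, -0.48 (SE 1.18) and 1.36 (SE 0.99), passed the test.

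SLITRKs promote or restrain neurite growth and assemble synapses, and Slitrk6 is the member known from the inner ear. Slitrk6 gave 208, 294 and 152 on the P3 arrays and 32.1, 49.3 and 34.9 on the adult arrays. Its adult arrays differed little from each other and adult replicate 1 was the lowest of them, unlike in most members. The fold was 5.53, with a log2 change of -2.47 (SE 0.33, limma adjusted p = 0.00490), and Slitrk6 was called in all 18 alternative settings, between -2.70 and -2.11. Among the other measured SLITRKs, Slitrk4 gave 86.3, 66.2 and 56.5 at P3 and 46.1, 17.5 and 22.7 in the adult. These stages did not overlap, but the log2 change of -1.38 (SE 0.45, adjusted p = 0.102) was not called. Slitrk1 ran the other way, with 38.8, 42.6 and 66.7 at P3 and 151, 47.7 and 108 in the adult, and overlapped (adjusted p = 0.262). Slitrk2 and Slitrk5 had log2 changes of -0.63 and -0.45, neither called.

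FLRTs guide axons and dendrites and act as postsynaptic partners of latrophilins. Flrt3 gave 414, 273 and 209 at P3 and 159, 64.2 and 73.3 in the adult. All P3 arrays were above all adult arrays, the fold was 3.16 and the log2 change -1.66 (SE 0.40, limma adjusted p = 0.0420). Its further probe set gave -1.74 (SE 0.38, adjusted p = 0.0295), and adjusted p-values of 0.0598 to 0.128 when P3 replicate 2 or 3 or adult replicate 2 or 3 was omitted. The call at the brightest probe set was lost when any array but adult replicate 1 was left out, with adjusted p-values of 0.0630 to 0.172. Flrt2 gave 530, 485 and 467 at P3 and 345, 262 and 198 in the adult, a log2 change of -0.91 (SE 0.25, adjusted p = 0.0625). A further Flrt2 probe set lay just inside the threshold on p and just under a fold of 2, with 367, 436 and 401 at P3 and 199, 203 and 203 in the adult (log2 change -0.99, SE 0.20, adjusted p = 0.0220). Flrt1 ran the other way, with 99.2, 55.1 and 70.9 at P3 and 178, 112 and 174 in the adult. Its stages did not overlap, and the log2 change of 1.05 (SE 0.32, adjusted p = 0.0876) was not called.

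Several of these leucine-rich repeat genes lie within another gene in the RefSeq annotation: Lrrtm1, Lrrtm2 and Lrrtm3 within the alpha-catenin genes Ctnna2, Ctnna1 and Ctnna3, and Flrt1 and Flrt3 within Macrod1 and Macrod2, which encode ADP-ribose hydrolases. None of the 5 host genes was called. Beside the fall of Lrrtm1, Ctnna2 gave 69.3 ± 23.3 at P3 and 57.5 ± 43.7 in the adult (SD over 3 arrays), and had a log2 change of -0.49 (SE 0.55). Macrod2, the host of Flrt3, had a log2 change of -1.04 (SE 0.37, adjusted p = 0.134), and Macrod1, the host of Flrt1, one of 1.04 (SE 0.30, adjusted p = 0.0760). In the other pairs, Lrrtm2 and its host Ctnna1 had log2 changes of -0.48 (SE 1.18) and 0.06 (SE 0.25). Lrrtm3 and Ctnna3 had 1.36 (SE 0.99) and 0.33 (SE 1.38). Ctnna3 signals were low, 12.4 ± 14.9 at P3 and 9.69 ± 7.28 in the adult, so the signs of these pairs are not settled. No test of the difference between host and nested gene was made.

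Neurexins and neuroligins, the central pair of synaptic adhesion, had no called member among the 5 measured, and 1, Nlgn3, had an unadjusted p under 0.05 by limma. Nlgn3, a neuroligin of excitatory and inhibitory synapses, gave 67.8, 25.6 and 28.5 on the P3 arrays and 10.1, 5.28 and 6.90 on the adult arrays. All adult arrays were below their background level. Against adult signals raised to that level the estimated fold at P3 was at least 3.38. The gene was not called, with a limma adjusted p of 0.0537 that just missed the threshold. Nlgn2, of inhibitory synapses, gave 367, 132 and 202 at P3 and 409, 108 and 323 in the adult. Nrxn2 gave 133, 129 and 161 at P3 and 275, 61.2 and 122 in the adult, and Nrxn3 gave 104, 52.5 and 35.6 at P3 and 115, 21.5 and 16.8 in the adult. In each of these 3 genes the adult arrays spanned the P3 arrays, with adjusted p-values of 0.594 to 0.894. Nlgn1, of excitatory synapses, was above background on 2 arrays of each stage and had a log2 change of -0.91 (SE 0.73).

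**Figure D2:**
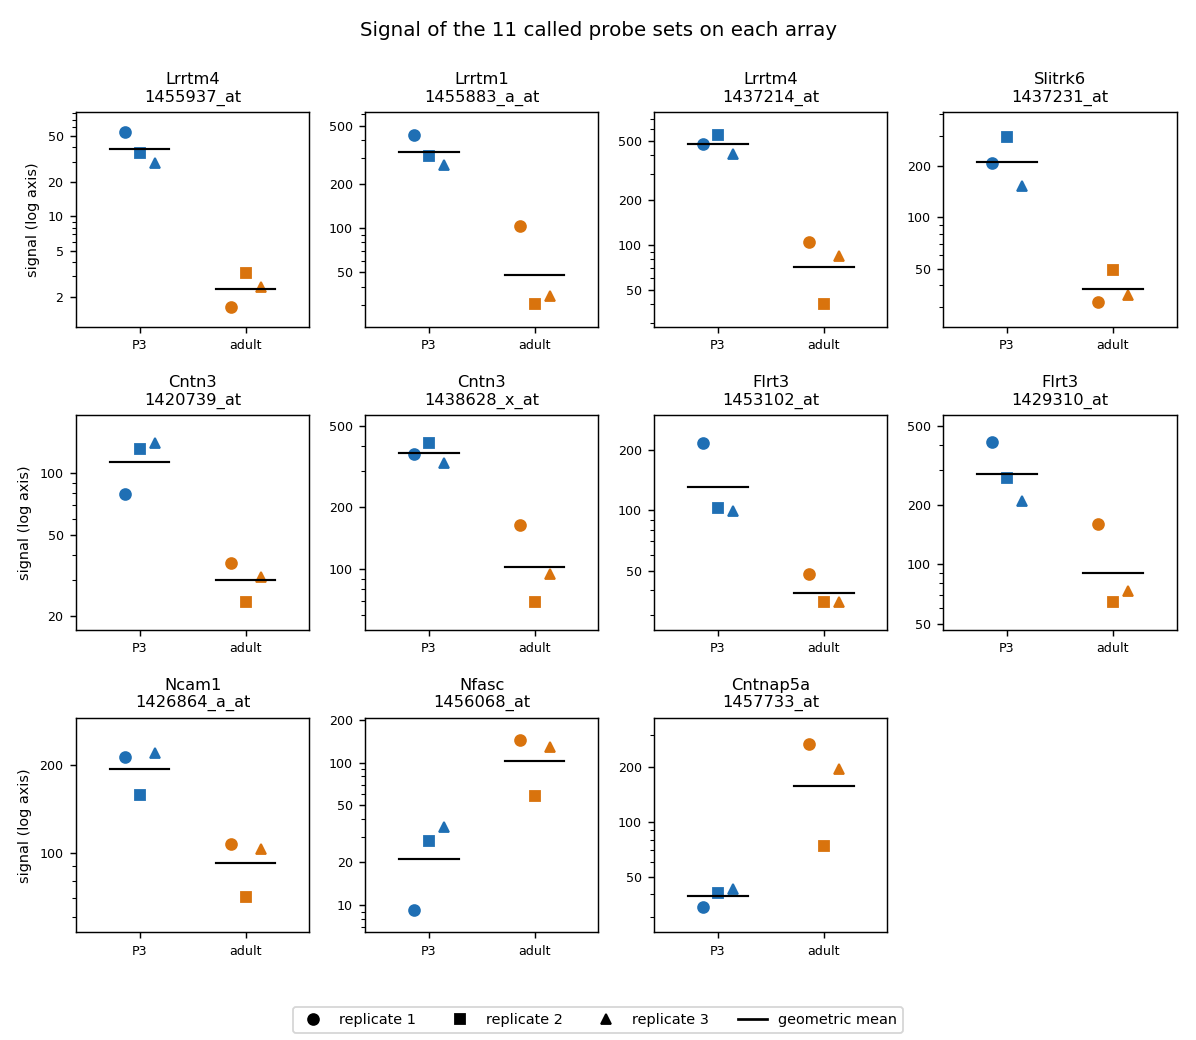
Signal, on a log axis, of each of the 11 called probe sets of adhesion genes on the 6 arrays, with symbols for the replicate number and a line at the geometric mean. In every panel the arrays of one stage lie above all arrays of the other, and Lrrtm4, Lrrtm1 and Slitrk6 show the widest gaps at P3.

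The log2 change of the contactins was below 0 in 5 of 6 genes, with a median of -1.32, and 1 of them was called. Cntn3 gave 364, 413 and 329 at P3 and 164, 69.3 and 94.3 in the adult. The stages were clearly apart, the fold was 3.58 and the log2 change -1.84 (SE 0.33, limma adjusted p = 0.0138). The call was lost without P3 replicate 2 (-1.76, adjusted p = 0.0511) and without adult replicate 3 (-1.78, 0.0741). This probe set is of a type that can bind other transcripts, and a further one of Cntn3 gave 79.6, 132 and 141 at P3 and 36.7, 23.6 and 31.3 in the adult (-1.92, SE 0.36, adjusted p = 0.0165, and over 0.05 when adult replicate 3 or either of P3 replicates 2 and 3 was omitted).

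Cntn4, Cntn5 and Cntn6, immunoglobulin proteins of sensory and cerebellar circuits, also had every P3 array above every adult array. Cntn5 gave 43.7, 43.6 and 44.5 at P3 and 26.4, 7.46 and 6.85 in the adult, where 1 array was above background. The P3 arrays were nearly equal, while adult replicate 1 was several times the other adult arrays. Cntn4 gave 127, 150.3 and 123 at P3 and 87.4, 57.5 and 48.6 in the adult. Cntn6, which can act as a ligand of Notch, gave 25.7, 29.5 and 32.5 at P3 and 17.0, 6.88 and 8.32 in the adult. The log2 changes were -1.99 (SE 0.61, adjusted p = 0.0887), -1.09 (0.30, 0.0660) and -1.55 (0.56, 0.138) for Cntn5, Cntn4 and Cntn6, and none was called.

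Cntn1 and Cntn2, the contactins of myelinated axons, did not share this pattern. Cntn1, the paranodal contactin, gave 902, 656 and 530.04 at P3 and 868, 452 and 605 in the adult, a log2 change of -0.13 (SE 0.31, adjusted p = 0.833). Further Cntn1 probe sets had log2 changes of 1.53 (SE 0.71, limma adjusted p = 0.237) and 0.06 (SE 0.29, 0.921). Cntn2, of the juxtaparanode, gave 61.2, 4.51 and 11.2 at P3 and 89.8, 17.3 and 30.7 in the adult. Both genes overlapped between the stages, and Cntn2 had a log2 change of 1.32 (SE 0.99).

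Cntnap5a, a contactin-associated protein, was the 1 member gene called higher in the adult. It gave 34.1, 40.5 and 42.8 at P3 and 269.5, 73.8 and 195 in the adult. P3 replicate 1 was just below its background level, the P3 arrays were close together and the adult arrays all higher but widely spread, with adult replicate 1 the highest. The fold was 4.03, with a log2 change of 2.01 (SE 0.46, limma adjusted p = 0.0359). Without adult replicate 1 the log2 change was 1.62 and the adjusted p 0.0973, and the call was kept only without adult replicate 2 among the settings that leave out 1 array. Without P3 replicate 1, 2 or 3 the adjusted p was 0.0558, 0.0873 or 0.0831, and without adult replicate 3 it was 0.165. Cntnap2, which clusters potassium channels beside the paranode, gave 209, 192 and 160 at P3 and 169, 128 and 137 in the adult, and Cntnap4 gave 93.1, 81.4 and 75.3 at P3 and 125, 77.4 and 106 in the adult. Both overlapped and had log2 changes of -0.38 (SE 0.24) and 0.28 (SE 0.28). A further Cntnap2 probe set had a log2 change of 0.77 (SE 0.46, limma adjusted p = 0.357).

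No gene of the L1 family was called at its brightest probe set by limma, and 2 of 4, Nfasc and Chl1, had an unadjusted p under 0.05. Nfasc encodes neurofascin, whose isoforms sit on the axon at the node and on glia at the paranode. Its brightest probe set gave 155, 47.1 and 86.7 at P3 and 262, 137 and 308 in the adult, a log2 change of 1.38 (SE 0.47, adjusted p = 0.118), and P3 replicate 1 lay above adult replicate 2. A further Nfasc probe set gave 9.22, 28.2 and 35.4 at P3 and 143, 58.5 and 128 in the adult. P3 replicate 1 was below background there and all adult arrays were above all P3 arrays, and it was called at the edge of the threshold (2.29, SE 0.58, limma adjusted p = 0.04999). Left out 1 at a time, every array but P3 replicate 1 ended that call, with adjusted p-values of 0.0509 to 0.206, and without P3 replicate 1 the log2 change was 1.70 (adjusted p = 0.0450).

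Chl1, the close homologue of L1, gave 145, 157 and 194 at P3 and 132, 40.2 and 66.0 in the adult. The stages did not overlap, but adult replicate 1 came close to the lowest P3 array, and the log2 change of -1.22 (SE 0.42, adjusted p = 0.121) was not called. L1cam gave 167, 83.8 and 127 at P3 and 250.4, 99.6 and 150.1 in the adult. Nrcam, a node protein of the same family, gave 132, 161 and 154 at P3 and 91.6, 149 and 210.5 in the adult. In both the stages overlapped, with log2 changes of 0.36 (SE 0.39) and -0.06 (SE 0.32).

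Ncam1 encodes the neural cell adhesion molecule, and 1 of its 4 measured probe sets was called. The brightest Ncam1 probe set gave 123, 238 and 341 at P3 and 184, 103 and 167 in the adult, and its stages overlapped (log2 change -0.55, SE 0.40). Another probe set of Ncam1 gave 213.5, 157 and 219 at P3 and 107, 70.5 and 103 in the adult, and was called higher at P3 (-1.08, SE 0.27, limma adjusted p = 0.0488), a call lost when any single array was left out (adjusted p = 0.0649 to 0.169). A dimmer one gave 3.70, 6.88 and 9.40 at P3 and 34.2, 11.5 and 13.2 in the adult (adjusted p = 0.279). Of its P3 signals 1 was above background, and the background level of P3 replicate 1, 34.5, exceeded all its adult signals, so that the order of the stages is not settled.

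The log2 signal of this dim Ncam1 probe set minus that of the brightest, taken within each array, did not differ between the stages past the threshold (limma adjusted p = 0.523). None of the 41 pairs of member probe sets passed this test by limma, and 5 had an unadjusted p under 0.05, while over all genes 0 of 11020 pairs passed and 7.39% had such a p. The 5 pairs were of Lsamp, Ncam1, Cntn1, Lrrtm1 and Cntnap2. Ncam2 was above background on 2 arrays of each stage, with 14.8, 18.8 and 31.8 at P3 and 67.8, 3.62 and 18.1 in the adult.

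**Figure D3:**
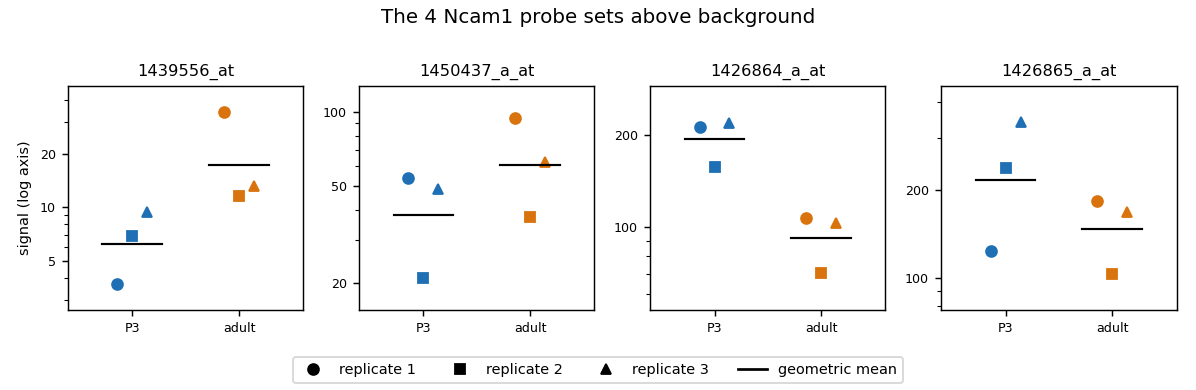
Signal, on a log axis, of the 4 Ncam1 probe sets above background on the 6 arrays, with symbols for the replicate number and a line at the geometric mean. The second from the right was called higher at P3, and in the leftmost, with adult signals of 11.5 to 34.2, only 1 P3 array was above its background level.

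SynCAMs and IgLONs, immunoglobulin proteins of synapses, glia and growing axons, had no gene called by limma, and 4 of the 7 measured, Cadm1, Cadm3, Opcml and Negr1, had an unadjusted p under 0.05. Cadm1, which is also made by epithelia, gave 1290.0, 751 and 815 at P3 and 780.3, 321 and 521 in the adult (log2 change -0.87, SE 0.36, adjusted p = 0.188). Cadm3, an axonal SynCAM, had the highest log2 change of the members, 2.67 (SE 0.95, adjusted p = 0.132), with 4.70, 21.2 and 29.3 at P3 and 310, 27.1 and 89.9 in the adult. Adult replicate 2 lay below P3 replicate 3, and P3 replicate 1 was below its background level of 34.5. The log2 change was 1.79 without adult replicate 1 (adjusted p = 0.345) and 1.87 without P3 replicate 1 (0.207), and the further probe sets of Cadm3 gave 1.69 and 0.77. Cadm4, the glial SynCAM of myelinating cells, gave 212, 527 and 681 at P3 and 751, 178 and 391 in the adult, and the stages overlapped.

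The IgLONs, lipid-anchored regulators of neurite outgrowth, divided into a pair with separate stages and a pair without. Opcml gave 79.2, 69.2 and 62.2 at P3 and 46.5, 17.4 and 14.1 in the adult, a log2 change of -1.63 (SE 0.50, adjusted p = 0.0865). Negr1 gave 86.8, 124 and 186 at P3 and 77.6, 40.5 and 29.3 in the adult, a log2 change of -1.48 (SE 0.44, adjusted p = 0.0810). In both, all P3 arrays lay above all adult arrays and adult replicate 1 was the highest adult array. Lsamp gave 87.8, 118 and 141 at P3 and 344, 63.3 and 163 in the adult, and Ntm gave 106, 163 and 170.004 at P3 and 274, 63.5 and 152 in the adult. In these the adult arrays spanned the P3 arrays, and the log2 changes were 0.43 (SE 0.55) and -0.05 (SE 0.49). A further Lsamp probe set went the other way, with 92.0, 110 and 86.8 at P3 and 90.6, 20.8 and 41.6 in the adult. Its stages overlapped too, and its log2 change was -1.16 (SE 0.50, limma adjusted p = 0.208).

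The spread among the adult arrays had 1 direction in nearly all members. Adult replicate 1 was the highest adult array in 36 of 39 genes, 92.3%, while this was so in 40.8% of all genes. Adult replicate 2 was the lowest adult array in 30 of the 39, and in 5504 of all 13743 genes. The signal of adult replicate 1 was at least 2-fold above the geometric mean of adult replicates 2 and 3 in 25 of the 39 genes, 64.1% against 12.5% of all genes. The median log2 difference of the members was 1.17, and over all genes it was 0.05. Of the pan-neuronal markers 21 of 22 were at least 2-fold higher on adult replicate 1, with a median of 1.79, whereas hair cell and supporting cell markers had medians of -0.57 and -0.30. Markers of other cell types were higher there too, among those that passed the filter on low signals. Of 10 markers of oligodendrocytes and central myelin on the array 6 passed, without Mog, Olig2, Ermn and Nkx2-2. All 6 were at least 2-fold higher, with a median of 2.40. Of 8 brain neuron markers 3 passed, without Gad2, Camk2a, Neurod6, Slc32a1 and Tbr1, and of 8 skeletal muscle markers 4 passed. The medians of these 3 and 4 markers were 2.97 and 2.02. Some of these signals were low: the 4 muscle markers summed to 105, 37.3 and 35.5 on adult replicates 1, 2 and 3. Of the brain neuron markers, Nrgn was flat, with 27.4, 29.2 and 25.1. The background level was also higher on adult replicate 1, 16.3 against 9.05 and 8.71 on adult replicates 2 and 3. What part other cell types or the background level had in the spread of the members was not tested. The 3 members of which adult replicate 1 was not the highest adult array were Slitrk6, Nfasc and Nrcam.

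**Figure D4:**
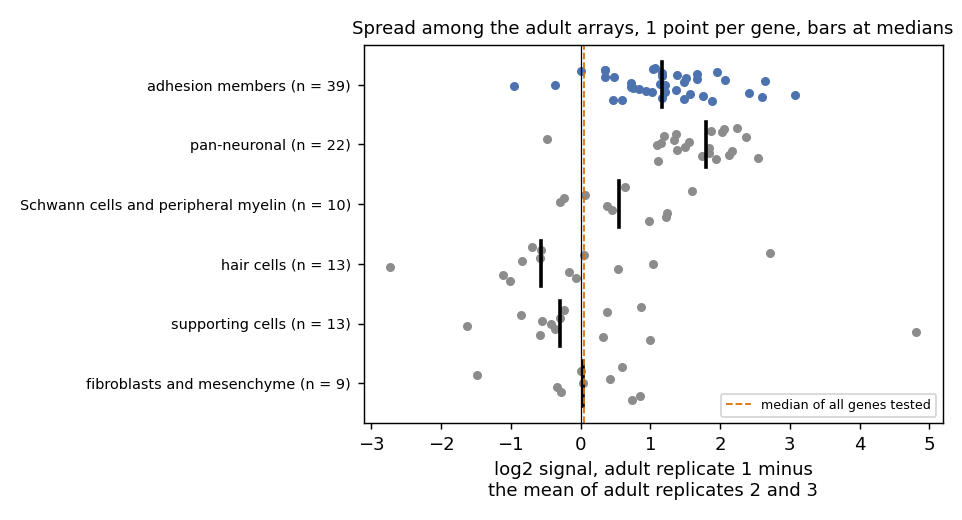
Log2 signal of adult replicate 1 minus the mean log2 signal of adult replicates 2 and 3, with 1 point for each gene at its brightest probe set, bars at the median of each group and a dashed line at the median of all genes tested. The members lie to the right, with a median of 1.17, and the pan-neuronal markers further right at 1.79, while hair cell markers have a median of -0.57.

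Some markers of cell types, within and outside the sensory epithelium, moved with the stage as well, and their part in the results above was not tested. Of 22 measured pan-neuronal markers, 3 were called higher in the adult, Snap25, Thy1 and Nefh, and 2 higher at P3, Gap43 and Scg2. Snap25, of synaptic vesicle fusion, gave 440.1 to 682 at P3 and 2609 to 6511 in the adult, whereas Tubb3 overlapped with 170 to 395 at P3 and 148 to 609 in the adult. The summed signal of 3 measured brain neuron markers was 170 to 240.2 at P3 and 59.5 to 605 in the adult, and none was called by limma or had an unadjusted p under 0.05. The summed signal of 10 Schwann cell and peripheral myelin markers was 4611 to 7769 at P3 and 5219 to 12619 in the adult. Mobp, of central myelin, and Prl, of the pituitary, were above background on no P3 array and on all adult arrays, where Mobp gave 877, 20.4 and 74.2 and Prl 756, 1197 and 71.5. Of the hair cell markers 1 of 13, Calb2, was called higher in the adult, where it gave 4366, 1542 and 2926 on replicates 1, 2 and 3. The log2 change was below 0 in 10 of the 13, and Myo7a gave 50.4 to 76.3 at P3 and 52.9 to 59.9 in the adult. Of the supporting cell markers 5 of 13 were called higher at P3, among them Sox2 with 888 to 1396 against 149 to 315 in the adult, and 2, Gjb6 and S100a1, were called higher in the adult (2.19 and 2.06 on the log2 scale). Of the fibroblast and mesenchyme markers all 9 had a log2 change below 0, with a median of -1.26, and 2 were called higher at P3, Col3a1 (-3.58) and Postn (-1.74). Of 8 astrocyte markers 3 were called higher in the adult, Gfap, Aldh1l1 and Gjb6, the last of which is also in the supporting cell list.

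Genes that bind, anchor or modify the members were taken from 4 lists, and 5 of 86 measured were called at P3 and 5 in the adult. These shares, 5.81% each, were near those of all genes, 5.54% and 4.58%. All 5 called in the adult were among the 16 partners of the node, paranode and juxtaparanode. Scn8a, the sodium channel of mature nodes, gave 28.7, 42.8 and 34.0 on the P3 arrays and 698, 172 and 351 on the adult arrays, a log2 change of 3.33 (SE 0.47, limma adjusted p = 0.00595). Kcna1 and Kcna2, potassium channels of the juxtaparanode, had log2 changes of 2.19 and 2.25 (adjusted p = 0.0341 and 0.0428). The spectrin Sptbn4, which anchors nodal channels, gave 14.4, 26.3 and 8.50 at P3 and 239, 43.3 and 125 in the adult, and Ank1, an ankyrin also found in neurons, gave 60.2, 52.9 and 59.9 at P3 and 491, 176 and 305 in the adult. On all 5 the adult arrays lay above the P3 arrays, adult replicate 1 highest and adult replicate 2 lowest. Left out 1 at a time, only Scn8a kept its call throughout. Ank3, the ankyrin of the node, and Epb41l3, the paranodal protein 4.1B, were not called, with log2 changes of 0.55 (SE 0.28) and -0.22 (SE 0.35).

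**Figure D5:**
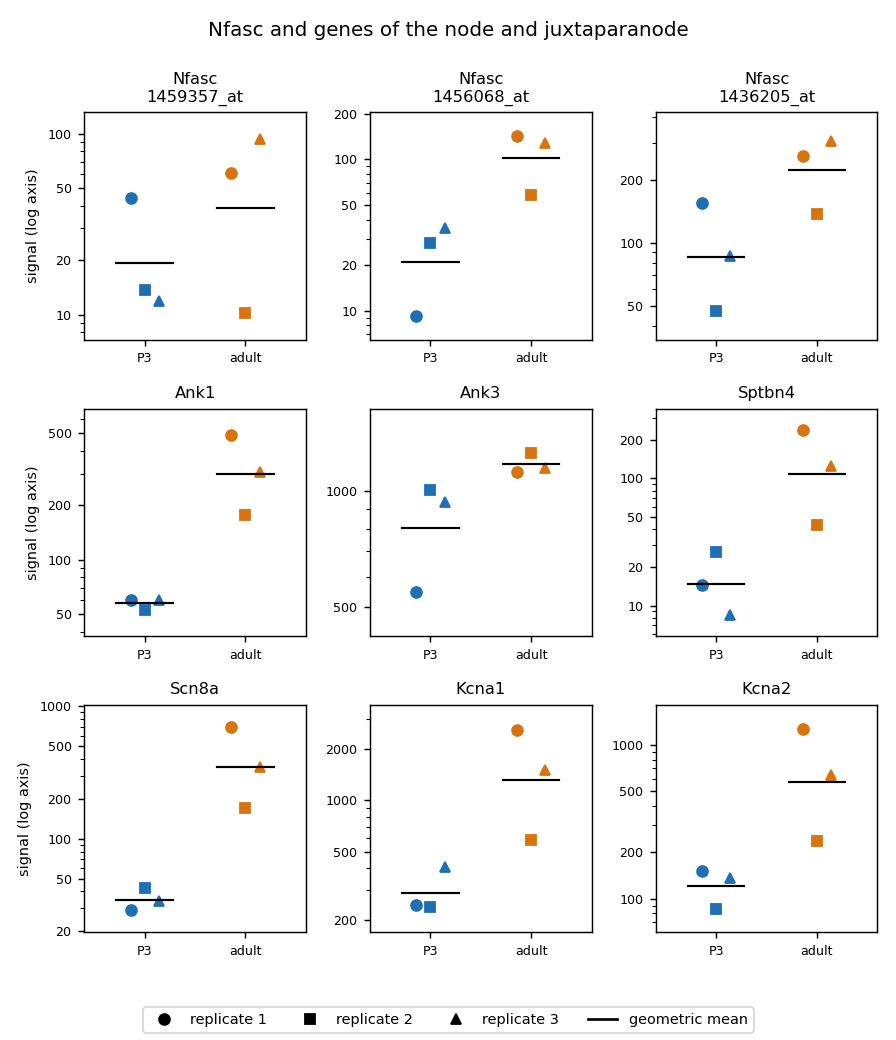
Signal, on a log axis, of the 3 Nfasc probe sets and of 6 of their partners at the node and juxtaparanode on the 6 arrays, with symbols for the replicate number and a line at the geometric mean. The adult arrays lie above the P3 arrays in the 5 called partners, in Ank3 and in 1 of the 3 Nfasc probe sets.

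Among the ligands and modifiers of contactins and NCAMs, 3 of 16 measured genes were called higher at P3 and 0 in the adult by limma, with an unadjusted p under 0.05 for 6 and 1. Tnc, the matrix protein tenascin C that binds contactins, gave 585, 443 and 478 at P3 and 59.3, 87.0 and 35.2 in the adult, a log2 change of -3.14 (SE 0.34, limma adjusted p = 0.00211). St8sia2, a sialyltransferase that adds polysialic acid to NCAM, gave 60.0, 89.8 and 75.9 at P3 and 18.6, 29.8 and 24.6 in the adult (-1.64, SE 0.37, adjusted p = 0.0334). The stages were far apart in both genes, and Tnc kept its call whichever array was omitted, St8sia2 only without P3 replicate 1 or adult replicate 2. St8sia4, the other polysialyltransferase, had P3 arrays above the adult arrays but was not called (-0.69, SE 0.30, adjusted p = 0.215). Gap43, the growth cone protein, had a log2 change of -3.38 (SE 0.57, adjusted p = 0.0114, or 0.0608 without adult replicate 3), and Ptprz1, the phosphatase that binds Cntn1, one of 0.01 (SE 0.31).

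Of 36 further synaptic organisers measured, the teneurins Tenm2 and Tenm3, which bind latrophilins as FLRTs do, were called higher at P3. That share, 5.56%, was near the 5.54% of all genes. No gene of this list was called higher in the adult by limma (2 at an unadjusted p under 0.05). Tenm2 gave 249, 263 and 278 at P3 and 106, 86.7 and 107 in the adult (-1.40, SE 0.22, limma adjusted p = 0.00850). Tenm3 gave 436, 772 and 877 at P3 and 195, 363 and 269 in the adult (-1.32, SE 0.33, adjusted p = 0.0493). In both, all P3 arrays lay above all adult arrays. The call of Tenm2 was lost without P3 replicate 3 (adjusted p = 0.0511), and the call of Tenm3 was kept only without P3 replicate 1 among the settings that leave out 1 array. None of the 18 intracellular scaffolds of these complexes was called by limma, with an unadjusted p under 0.05 for 1 at P3 and 1 in the adult. Cask, which binds neurexins, gave 385 to 455 at P3 and 249 to 269 in the adult (-0.68, SE 0.20, adjusted p = 0.0772), and Dlg4, the scaffold PSD-95 that binds neuroligins, overlapped (0.84, SE 0.54).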

How the data were processed

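CSE from P3 and adult mice were profiled on 6 Affymetrix arrays, 3 per stage. The authors computed the deposited MAS5.0 signal intensities with GCOS, version 1.2 in the submitters' processing notes, and scaled them to a trimmed mean of 100. All 45101 probe sets were read as deposited, and gene names came from an array annotation of 2016. The background of an array was the 90th percentile of 83 probe sets that name receptors of smell, pheromones or bitter taste, and the 29036 probe sets that exceeded it on 3 or more arrays were kept.

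The log2 signals of both stages were compared by limma 3.58.1 under R 4.3.3 (lmFit and trended eBayes, stage the single factor). Calls required an adjusted p (Benjamini-Hochberg) under 0.05 together with a fold of 2 or more. The SAM procedure of the study was not used. A fold was given as at least N-fold, against signals raised to the background level, where no array of the lower stage exceeded background. Such a fold is a point estimate that makes no allowance for the spread among arrays. Permuting 3 arrays against 3 exactly can give no p below 0.1. The procedure was tested on simulated data. Values per array were given for members that were called, or had separate stages and a fold of at least 2, for up to 3 more per family of highest signal, and for Ncam1. Cadm4, Cntnap4, Lrrtm2, Lrrtm3 and the genes with single values were described after their values were seen, as were the host genes. The members and all lists were chosen with earlier results of these data known. Quantile normalization, median scaling, other filters and background levels, floored signals, array weights, a replicate block, the mean over probe sets and each array left out were tried as alternatives. Array number limits the precision, and the pools of a stage are the only replicates.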

Additional observations from a re-analysis of the deposited data

How the results depend on the processing

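With all arrays, member genes called higher at P3 and in the adult numbered 5 and 1, member probe sets 9 and 2, partner genes 5 and 5, and unequal pairs of probe sets 0. No called gene changed direction, whereas the small differences of genes not called, such as Cadm4, Cntn1 and Ntm, changed sign in some settings. With array weights these counts were 15 and 6, 28 and 11, 12 and 14, and 9, with 3182 and 4411 of all probe sets called against 1125 and 984. Scaled to the same median they were 3 and 0, 5 and 0, and 2 and 2, with 284 and 280 of all probe sets. Without the eBayes trend (485 and 414 of all probe sets), members numbered 3 and 0, member probe sets 5 and 0, and partners in the adult 2. With quantile normalization, and with no filter, 1 member probe set was called in the adult, where 899 and 905 of all probe sets were. With the mean over the probe sets of a gene, 3 partners were called in the adult. Left out 1 at a time, the arrays gave 2 to 11 member genes at P3 and 0 to 2 in the adult, 2 to 16 and 0 to 3 member probe sets, and 2 to 8 and 1 to 7 partners. Over all probe sets these settings gave 342 to 1440 calls at P3 and 234 to 1399 in the adult. Without P3 replicate 1 and adult replicate 1, chosen after seeing the data, members numbered 14 and 2, member probe sets 24 at P3, and partners 11 and 3. Of all probe sets, 1827 and 1700 were called there. The cause of these shifts was not tested. Same-numbered arrays of the stages correlated at 0.182, 0.213 and 0.0762 in their deviations from the stage means. Differently numbered ones correlated at -0.197 to 0.0543. These values did not settle whether the numbers pair the arrays, and the main fit left them unpaired. With a replicate block 6 member genes were called at P3 and 3 in the adult, with 1318 and 1331 of all probe sets called. With 3 arrays a stage, genes near the background, such as Lrrtm2, Ncam2 and Nlgn1, had an SE of 0.73 to 1.18 on the log2 scale, and differences of that size were not detectable.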
